A study of Mus musculus with 4 samples.

Results

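The genes described here are 76 annotated mouse microRNA genes that had reads in poly(A) RNA of embryonic stem cells, of 43629 genes counted. They were selected on their raw counts: genes of Ensembl biotype miRNA with a symbol starting with Mir and at least 10 counts summed over the 4 libraries. Genes of the miR-290 cluster on chromosome 7, the Dlk1-Dio3 cluster on chromosome 12 and the miR-106a-363 cluster on chromosome X were left out, and coordinates refer to build mm10. Of 1051 genes of this kind in the count tables, 985 lay outside those clusters, and 676 of the 985 had no count in any library. Because the summed count chose the genes, a gene without counts in 1 group had to have them in the other, so the numbers of genes on each side are a description and carry no test of their own. The 76 genes form 69 groups of neighbours on the same strand within 10 kb, which may share a transcript.

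The study sequenced poly(A) RNA of mouse embryonic stem cells, as 2 Drosha knockout and 2 wild-type libraries. All cells have a 129/Ola background and were kept in medium with serum and LIF. KO1 lacks the proline-rich region of Drosha and KO2 the region rich in arginine and serine, so that each knockout allele is represented by 1 library. Both knockout libraries are labelled passage 7 and carry the mark d5, which the labels do not explain. The wild-type libraries come from the E14 line at passage 33 (WT1) and passage 42 (WT2) and are described as re-used. Genotype, passage and origin of the libraries coincide and cannot be told apart. The labels do not name separate cultures. The p-values therefore describe the spread between these 4 samples alone, which may be technical.

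MicroRNA genes are transcribed as long capped and polyadenylated primary transcripts, or lie in introns and exons of other genes. In the nucleus DROSHA, with its RNA-binding partner DGCR8, cuts the hairpin out of the primary transcript. DICER then trims the hairpin in the cytoplasm to the mature microRNA, whose seed pairs with target messages. Neither the cut hairpin nor the mature microRNA carries a poly(A) tail, so reads counted over a microRNA gene in such libraries are taken to come from longer transcripts. The annotated stretch runs past the mature arms, and whether the transcripts read were cut or uncut was not tested.

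RefSeq (GRCm38.p6) held the hairpin of 64 of the 76 genes and 121 mature sequences. Those below belong to genes described in the text, some of them with few or uncertain counts. Their seed, bases 2 to 8 from the 5′ end, is in capitals. The first 4 show a shared seed in 4 genes on 3 chromosomes, the next 3 belong to a pair of paralogous clusters, and the last 5 belong to a pair of imprinted neighbours and to an abundant repeated gene.
mmu-let-7a-5p (Mirlet7a-1): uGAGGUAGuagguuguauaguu
mmu-let-7b-5p (Mirlet7b): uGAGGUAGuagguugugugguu
mmu-let-7c-5p (Mirlet7c-2): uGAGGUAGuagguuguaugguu
mmu-let-7g-5p (Mirlet7g): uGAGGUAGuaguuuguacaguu
mmu-miR-27b-3p (Mir27b): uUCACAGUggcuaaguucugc
mmu-miR-27a-3p (Mir27a): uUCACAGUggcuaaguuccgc
mmu-miR-23b-5p (Mir23b): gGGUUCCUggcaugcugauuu
mmu-miR-296-5p (Mir296): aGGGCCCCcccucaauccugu
mmu-miR-296-3p (Mir296): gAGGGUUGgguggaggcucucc
mmu-miR-298-5p (Mir298): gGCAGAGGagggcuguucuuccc
mmu-miR-298-3p (Mir298): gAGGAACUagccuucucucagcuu
mmu-miR-692 (Mir692-1 and Mir692-2): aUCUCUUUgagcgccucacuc

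Counts refer to whole annotated hairpins of 55 to 139 bases. The RefSeq hairpins of Mirlet7a-1 and Mirlet7g, shown with both mature arms in capitals, give the stretch over which a read had to fall to be counted.
Mirlet7a-1 hairpin: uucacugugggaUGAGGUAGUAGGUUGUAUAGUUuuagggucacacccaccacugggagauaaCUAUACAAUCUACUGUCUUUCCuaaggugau
Mirlet7g hairpin: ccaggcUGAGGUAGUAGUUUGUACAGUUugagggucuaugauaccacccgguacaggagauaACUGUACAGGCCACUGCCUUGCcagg

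The libraries held between 29264632 and 42322129 counts, and 1 count equals 0.0236 to 0.0342 CPM (counts scaled to library size) before TMM scaling. Intervals and floors below cover counting error only. The knockout libraries differed little from each other and the wild-type libraries much more, with a chi-square per degree of freedom of 2.26 and 167 over genes with at least 50 counts. Drosha, the targeted gene, had 158 and 158 CPM in KO1 and KO2 against 364 and 357 CPM in WT1 and WT2, summed over the whole gene, so its transcript was lower in the libraries labelled knockout and not absent. Summed CPM of 10 embryonic stem cell markers were 6898 and 6957 in KO1 and KO2 and 5944 and 7070 in WT1 and WT2, and 1 of the 10 tested (Utf1) was called higher. Of 8 tested endoderm markers 3 were called lower, and the sums were 68.6 and 68.2 against 242 and 416.5 CPM. Neural markers (2 of 5 tested called higher, with Dcx at 0) summed to 112 and 113 against 59.0 and 68.1 CPM, and trophoblast markers (1 of 4 called higher) to 122 and 120 against 71.1 and 61.2 CPM. Fibroblast markers (Twist2 at 0) summed to 59.5 and 54.6 against 45.5 and 32.4 CPM, most of it from Thy1. Dcn had 1.65, 0.541, 0 and 0 CPM in KO1, KO2, WT1 and WT2, Col3a1 1.52, 0.316, 0.0251 and 0, Postn 0.713, 0.180, 0 and 0, and Lum 0.162, 0.0676, 0 and 0. These 4 genes thus had almost no counts in the wild types and more in KO1 than in KO2. Col1a1, Col1a2, Thy1, Pdgfrb and Acta2 of the same list were read in all 4 libraries. Col1a1 had 2.496, 1.803, 1.127 and 0.3888 CPM, and Col1a2 1.167, 0.3606, 0.4008 and 0.2777. Acta2 had 1.102, 1.195, 5.561 and 0.05554 CPM, highest in WT1. Mesoderm markers summed to 8.78 and 7.82 against 4.48 and 3.03 CPM. In these last 2 lists edgeR called none of 7 and none of 4 tested genes, with 3 and 2 at an unadjusted p under 0.05 and 2 and 1 called by DESeq2. Several of these markers move with the groups, and the part of the markers in the microRNA values was not tested. In bulk RNA, fewer cells of a type and less RNA per cell cannot be told apart.

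More of the microRNA genes were higher in the knockout libraries than lower. The 5 genes that passed the test over all genes were all higher: Mirlet7a-1 and Mirlet7g of the let-7 family, Mir23b, and the neighbours Mir296 and Mir298. Both knockout libraries lay above both wild-type libraries in 39 of the 76 genes (51.3%), and both lay below in 12 (15.8%). Over all genes with at least 10 counts, the corresponding shares were 35% and 32.9%. After the expression filter 33 of the 76 genes were among the 17022 genes tested. The 5 calls compare with 3.51% of all tested genes called higher and 1.94% called lower, or 5.45% in either direction, by edgeR's quasi-likelihood test at a Benjamini-Hochberg adjusted p under 0.05. The median log2 fold change, knockout over wild type, was 1.74 over the 33 tested genes, also with the 4 genes lacking wild-type counts set at their lower bound, and -0.02 over all tested genes. Without the filter it was 1.08 over the 76 genes and 0.02 over 26409 genes. The 5 called genes had 0 to 3 counts in each wild-type library, so they met the filter only through the knockout libraries. Their calls and these medians are therefore given as a description of genes selected on their counts.

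These calls stand near the threshold. With library totals alone, upper-quartile scaling or GC and length trends removed, 0 of the microRNA genes and 0 of all genes passed. At an unadjusted p under 0.05 were 19, 19 and 15 of the 33 microRNA genes, and 35.9%, 36.8% and 23.5% of all genes. The fitted changes of the 5 stayed close, for instance 4.07, 3.97 and 3.93 for Mirlet7g and 5.77, 5.68 and 5.98 for Mir23b, except 4.72 for Mir296 with trends removed. None of the microRNA genes passed without KO1 or without KO2, with 13 of 39 and 11 of 38 at an unadjusted p under 0.05, against 9.91% and 11.5% of all genes. Without WT1 31 of 45 passed and without WT2 28 of 46, against 77.7% and 68% of all genes. DESeq2 called 9 (8 higher), of which 4 were among the 5 (Mirlet7g received no adjusted p), and it called 12.9% of all genes higher and 11.1% lower. Without the filter edgeR called 14 (12 higher), and 6.09% of all genes higher and 3.99% lower.

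**Figure D1:**
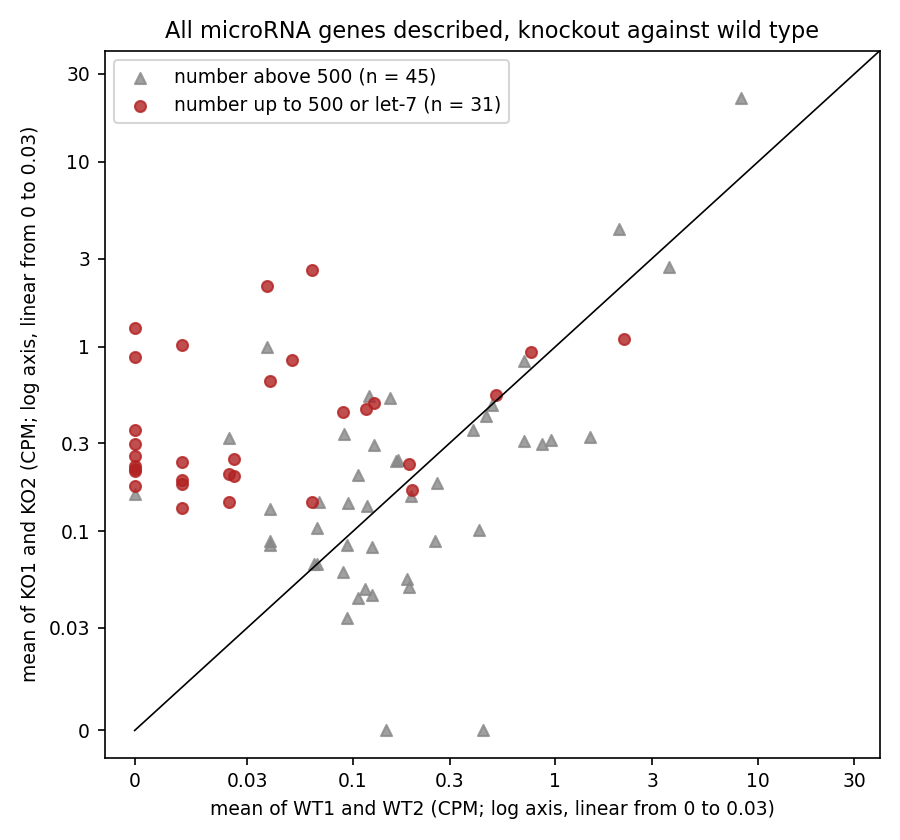
Mean CPM of the 2 knockout libraries (vertical axis) against that of the 2 wild-type libraries (horizontal axis) for each of the 76 microRNA genes, on log axes that are linear from 0 to 0.03 CPM. The diagonal marks equal levels. Genes with a name number up to 500 and let-7 genes (circles) lie mostly above it, 27 of 31 with non-overlapping groups, and genes with a number above 500 (triangles) lie on both sides.

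The let-7 family was represented by 4 genes, all higher in both knockout libraries than in either wild-type library. Mature let-7 microRNAs favour differentiation, and LIN28 proteins of stem cells block their maturation. RefSeq lists 13 mouse loci with the seed GAGGUAG. Mirlet7a-1 (ENSMUSG00000065421, chromosome 13, 48538179 to 48538272, minus strand) had 23 counts in KO1 and 45 in KO2 and none in WT1 or WT2. This is 0.746 and 1.01 CPM against 0, at least 11.4-fold higher when 3 counts are allowed in each wild-type library (edgeR adjusted p = 0.0482). The gene overlaps an exon of the non-coding gene 6720427I07Rik, which itself rose from 3.41 and 3.47 to 9.34 and 9.15 CPM (log2 fold change 1.43 ± 0.19, edgeR adjusted p = 0.0482). Per 1000 counts of that host, Mirlet7a-1 had 79.9 and 111 counts in KO1 and KO2 and 0 in both wild types. Mirlet7d, 2065 bases from Mirlet7a-1 on the same strand, had no count in any library, so reads were counted for only 1 of these neighbours. Reads over both a hairpin and its host may have been left uncounted, which was not tested.

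Mirlet7g (chromosome 9, 106178840 to 106178927, plus strand) lies in an intron of the protein-coding gene Wdr82, which encodes a subunit of histone methyltransferase complexes. It had 20, 29, 2 and 1 counts in KO1, KO2, WT1 and WT2, or 0.648, 0.654, 0.0501 and 0.0278 CPM. The ratio of the groups was 16.5, with an exact 95% counting interval of 5.32 to 82.7, and the log2 fold change was 3.94 ± 0.50 (SE, edgeR adjusted p = 0.0482). Wdr82 did not pass, with 264 and 271 against 325 and 310.5 CPM (log2 fold change -0.25 ± 0.11, edgeR adjusted p = 0.188). Per 1000 counts of Wdr82, Mirlet7g had 2.46 and 2.41 counts in the knockouts and 0.154 and 0.0894 in the wild types.

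Mirlet7c-2 and Mirlet7b (chromosome 15, 85706603 to 85706697 and 85707319 to 85707403, plus strand) overlap exons of the non-coding gene Lncppara. Mirlet7c-2 had 7 and 10 counts in the knockouts and Mirlet7b 12 and 14, and both had 0 in each wild type. Mirlet7b was at least 4.37-fold higher (edgeR adjusted p = 0.0540). Mirlet7c-2 was at least 2.86-fold higher and did not reach the filter. In all 4 let-7 genes, on 3 chromosomes, both knockouts lay above both wild types, with non-coding and protein-coding hosts among them.

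Mir23b and Mir27b are neighbours on chromosome 13 (63300484 to 63300557 and 63300712 to 63300784, plus strand), within 2010111I01Rik and opposite Fancc. Their mature products belong to families with roles in vascular and muscle cells. Mir23b had 60, 102, 3 and 0 counts in KO1, KO2, WT1 and WT2, or 1.94, 2.30, 0.0752 and 0 CPM. Its ratio was 54.5 (exact 95% interval 18.3 to 267) and its log2 fold change 5.65 ± 0.84 (SE, edgeR adjusted p = 0.0482). Mir27b had 77, 120, 5 and 0 counts, or 2.50, 2.71, 0.125 and 0 CPM, with a ratio of 39.8 (16.8 to 124). Its log2 fold change of 5.25 ± 0.93 did not pass (edgeR adjusted p = 0.0533). The groups did not overlap for either gene.

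2010111I01Rik, the same-strand gene that holds both, changed less, from 17.4 and 16.5 to 44.8 and 43.4 CPM (log2 fold change 1.38 ± 0.13, edgeR adjusted p = 0.0482). Per 1000 of its counts, Mir23b had 43.5 and 53.0 in the knockouts and 4.31 and 0 in the wild types. Mir27b had 55.8 and 62.3 against 7.18 and 0. The labels call the protocol reverse-stranded, but whether the counting used strand is not given in the sources used here, so reads of the overlapping Fancc strand cannot be set apart.

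In the paralogous cluster on chromosome 8 both knockouts also lay above both wild types, with fewer counts. Mir23a (84208518 to 84208592) had 7, 11, 1 and 0 counts and Mir27a (84208672 to 84208758) had 6, 7, 0 and 0. Mir23a had a ratio of 18.2 (2.87 to 757), and Mir27a was at least 2.19-fold higher. Mir24-2, 57 bases past Mir27a, had 2 and 4 counts in the knockouts and 0 in the wild types. Neither Mir23a nor Mir27a reached the expression filter, so no test was made.

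Mir296 and Mir298 (chromosome 2, 174267047 to 174267125 and 174267504 to 174267585, minus strand) lie outside annotated genes in the imprinted Gnas region. They were nearly absent from the wild types. Mir298 had 38 and 57 counts in the knockouts and 0 in both wild types, or 1.23 and 1.28 CPM, and was at least 16.0-fold higher (edgeR adjusted p = 0.0482). Mir296, whose product has been linked to stem cell differentiation, had 32, 45, 1 and 0 counts, or 1.04, 1.01, 0.0251 and 0 CPM. Its ratio was 77.7 (13.5 to 3109) and its log2 fold change 5.97 ± 0.73 (SE, edgeR adjusted p = 0.0482). The nearest upstream gene on the strand was Nespas, an imprinted antisense transcript of Gnas, which ends 14112 bases before Mir296. It had 9.27 and 6.40 against 1.50 and 1.72 CPM (log2 fold change 2.28 ± 0.30, edgeR adjusted p = 0.0482). Gnas on the other strand had 206 and 195 against 113 and 137 CPM and did not pass (0.68 ± 0.15, edgeR adjusted p = 0.0630).

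**Figure D2:**
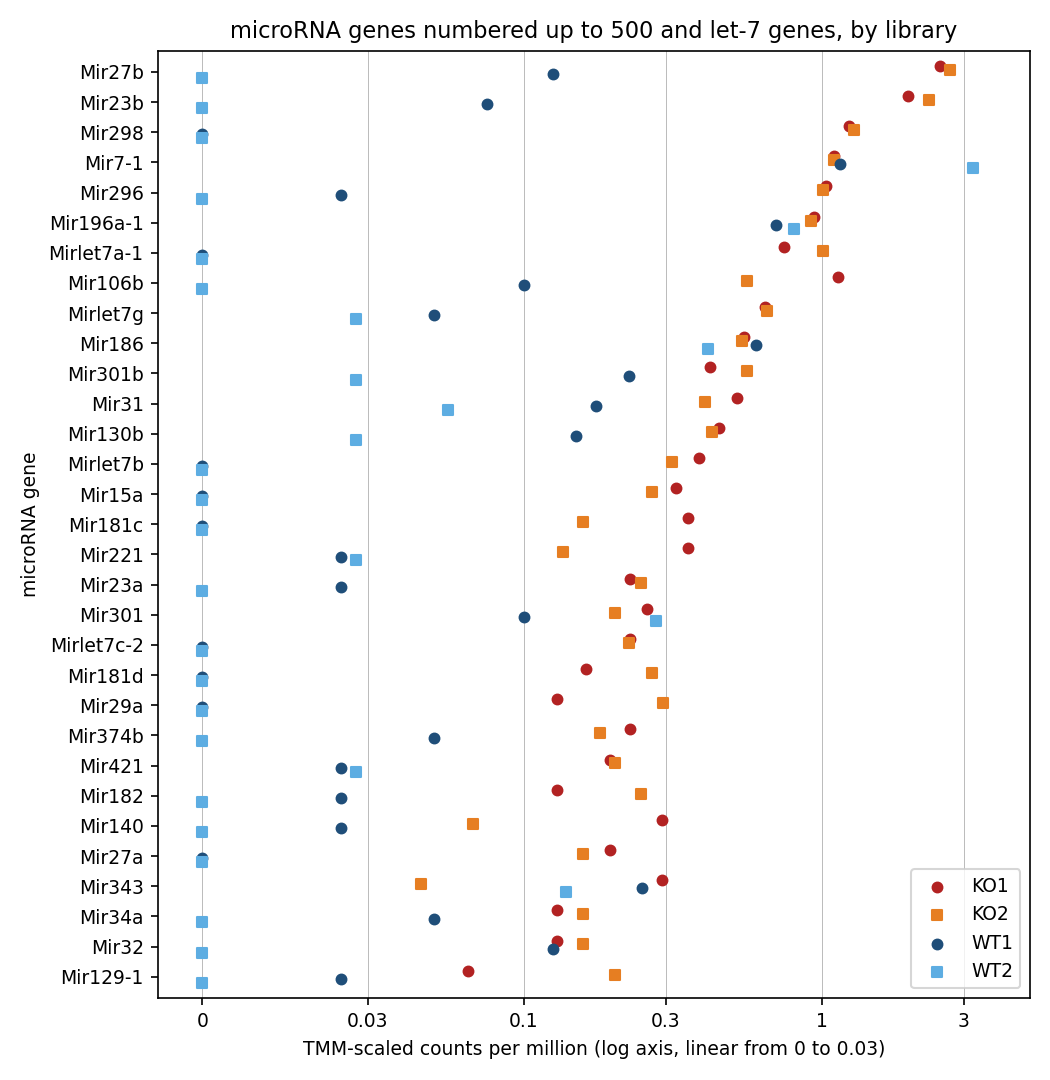
TMM-scaled CPM (horizontal log axis, linear from 0 to 0.03) in each of the 4 libraries for the 31 genes with a name number up to 500 and the let-7 genes, ordered by the knockout mean. Knockout points (red and orange) lie to the right of the wild-type points (dark and light blue) in 27 rows. Mir7-1 is the only row with the opposite order, and Mir186, Mir343 and Mir301 overlap.

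Several other genes lay high in both knockout libraries without passing the adjusted threshold. Mir106b (chromosome 5, 138165737 to 138165818), a member of the miR-17 family that acts on cell-cycle genes, had 35, 25, 4 and 0 counts in KO1, KO2, WT1 and WT2 (log2 fold change 3.93 ± 1.03, edgeR adjusted p = 0.0798). It lies in an intron of Mcm7, a subunit of the replicative helicase, which had 599 and 595 against 426 and 456 CPM (0.44 ± 0.12, adjusted p = 0.0825). Mir93 and Mir25, 127 and 333 bases from Mir106b in the same host, had no count in any library. Of the 3 hairpins of this cluster, reads were thus counted over Mir106b alone, and the part of the counting options in this was not tested.

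Mir15a (chromosome 14, 61632027 to 61632110), which targets Bcl2 and cyclins, had 10 and 12 counts in the knockouts and 0 in the wild types, at least 3.70-fold higher (edgeR adjusted p = 0.0557). Its host Dleu2 had 20.2 and 22.1 against 10.4 and 15.9 CPM (log2 fold change 0.69 ± 0.26, edgeR adjusted p = 0.143). Mir16-1, 55 bases from Mir15a, had 1 and 3 counts in the knockouts and 0 in the wild types. The knockout and wild-type values of this cluster did not overlap.

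Mir3091 lies in an intron of Rps21, a ribosomal protein gene, and had 31, 44, 3 and 0 counts (log2 fold change 4.56 ± 0.86, edgeR adjusted p = 0.0553, or 2.98 with GC and length trends removed). Rps21 itself rose from 99.8 and 71.7 to 346 and 349 CPM (2.02 ± 0.20, edgeR adjusted p = 0.0482), so both were higher, the hairpin by more. Per 1000 counts of Rps21, Mir3091 had 2.90 and 2.84 counts in the knockouts and 0.753 and 0 in the wild types. Mir130b and Mir301b, neighbours in introns of 2610318N02Rik on chromosome 16, had 14, 19, 6 and 1 and 13, 25, 9 and 1 counts. Their log2 fold changes of 2.23 ± 0.72 and 1.91 ± 0.83 were close to the 1.67 ± 0.13 of that host, which was called (edgeR adjusted p = 0.108, 0.176 and 0.0482). Mir301 shares the seed AGUGCAA with Mir130b and lies in Ska2 on chromosome 11. It had 8, 9, 4 and 10 counts, so its groups overlapped (0.29 ± 0.64, edgeR adjusted p = 0.764).

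Mir181c and Mir181d share the seed ACAUUCA and lie in introns of Nanos3, a germ cell gene. Mir181c had 11 and 7 counts in the knockouts and Mir181d had 5 and 12, with 0 in both wild types. Nanos3 rose from 0.501 and 0.333 to 4.44 and 4.55 CPM (log2 fold change 3.42 ± 0.33, edgeR adjusted p = 0.0482). Mir421 and Mir374b lie in introns of Ftx, a non-coding gene of the X inactivation centre. They had 6, 9, 1 and 1 and 7, 8, 2 and 0 counts, while Ftx had 9.79 and 10.2 against 7.21 and 10.8 CPM (0.15 ± 0.26, edgeR adjusted p = 0.703). The hairpins of Ftx did not overlap between the groups, and its own libraries did.

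Low counts in both knockout libraries and almost none in the wild types were also found for genes with known roles in other tissues. Mir29a, a regulator of collagen genes, had 4, 13, 0 and 0 counts and Mir140, a cartilage microRNA, had 9, 3, 1 and 0. Mir34a, a target of p53, had 4, 7, 2 and 0 counts, and Mir182 of the sensory miR-183 cluster had 4, 11, 1 and 0. Mir221, known from proliferating cells, had 11, 6, 1 and 1 counts. Of their neighbours, Mir96 and Mir183 next to Mir182, Mir222 next to Mir221 and Mir29b-1 next to Mir29a had 4 or 5 counts in all, each in the knockouts only. These genes were under the expression filter and their intervals were wide, for instance a ratio of 5.55 (1.21 to 51.5) for Mir34a. The fibroblast genes Dcn, Col3a1, Postn and Lum given above were also almost absent from the wild types. Col1a1 and Col1a2 of that list were read there, and Acta2 was highest in WT1. Dcn, Col3a1, Postn and Lum had more CPM in KO1 than in KO2, as had Mir140 and Mir221. Mir29a, Mir34a and Mir182 had more in KO2. The part of the fibroblast genes in these values was not tested.

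Mir692-1 (chromosome 17, 6895229 to 6895337) had 672, 1001, 400 and 236 counts in KO1, KO2, WT1 and WT2, or 22.2 ± 0.552 against 8.29 ± 2.45 CPM (SD, n = 2 each; log2 fold change 1.42 ± 0.26, edgeR adjusted p = 0.0543). This difference was not found once trends with GC and length were removed, with a value of 0.08 ± 0.15 (edgeR adjusted p = 0.762). Of its 30-base stretches 36.3% also occur in other annotated genes, and for Mir692-2 on chromosome 4 the share is 100%. Among the genes that hold such stretches are the ferritin light chain gene Ftl1, some of its pseudogenes, Mir692-3 and unnamed Gm genes. Mir692-2 had 15, 25, 11 and 1 counts (1.74 ± 0.87, edgeR adjusted p = 0.219). It overlaps Ftl2-ps and runs past its end. Ftl2-ps had 408 and 390 against 128 and 65.2 CPM (2.05 ± 0.36, edgeR adjusted p = 0.0533). Ftl1 had 28.6 and 26.3 against 15.1 and 29.0 CPM (0.32 ± 0.35, adjusted p = 0.532). How reads matching several places were counted is not given in the sources used here, so the values of both Mir692 genes are uncertain.

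Mir5125 (chromosome 17, 23823291 to 23823369), in an intron of Srrm2, which encodes a splicing cofactor, had 148, 172, 88 and 69 counts, or 4.80, 3.88, 2.20 and 1.92 CPM. Its groups did not overlap, and its log2 fold change of 1.07 ± 0.26 did not pass (edgeR adjusted p = 0.0731) and was 0.63 with GC and length trends removed. Srrm2 had 811 and 780 against 1092 and 939 CPM (-0.35 ± 0.14, edgeR adjusted p = 0.147). Mir6236 on chromosome 9, outside annotated genes, had 76, 130, 190 and 92 counts, and its groups overlapped (-0.44 ± 0.39, edgeR adjusted p = 0.447). Its value was 0.10 without WT1, -0.79 without WT2 and -0.97 with trends removed.

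Mir196a-1, in the Hoxb region of chromosome 11, had 29, 41, 28 and 29 counts (log2 fold change 0.31 ± 0.31, edgeR adjusted p = 0.495). Mir186 in Zranb2 had 17, 24, 24 and 15 counts (0.10 ± 0.37, edgeR adjusted p = 0.865). Mir1191, overlapping an exon of BC024978, had 21, 44, 26 and 27 (0.26 ± 0.36, edgeR adjusted p = 0.619). These were as deeply read as several of the called genes, and in this fit they differed between groups by no more than their SE. Both knockouts lay above both wild types for Mir196a-1, with 0.940 and 0.924 against 0.701 and 0.805 CPM, while the groups of Mir186 and Mir1191 overlapped. Without WT2 the value of Mir186 was -0.13, and without KO2 that of Mir1191 was -0.03. With trends removed the values of Mir196a-1, Mir186 and Mir1191 were 0.69 ± 0.29, 1.12 ± 0.47 and 0.61 ± 0.34. These exceeded their SE without passing (edgeR adjusted p = 0.249, 0.253 and 0.352).

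Of the 12 genes that lay lower in both knockouts, 10 lie in introns. The 3 lowest log2 fold changes among tested genes were those of Mir1957a, Mir3058 and Mir1898. Mir1957a (chromosome 4, 119129779 to 119129844), in an intron of the glucose transporter gene Slc2a1, had 13, 10, 80 and 35 counts (-2.22 ± 0.58, edgeR adjusted p = 0.0791). Slc2a1 had 472 and 457 against 366 and 392 CPM (0.29 ± 0.12, adjusted p = 0.155). Mir3058 in Nudt4 had 11, 12, 37 and 35 counts (-1.60 ± 0.35, adjusted p = 0.0639), and its host had 226 and 229 against 257 and 451 CPM (-0.64 ± 0.30, adjusted p = 0.195, all edgeR). Mir1898 in Zfr had 5, 19, 20 and 44 counts (-1.48 ± 0.71, edgeR adjusted p = 0.201), and its value was -0.65 without WT2, -2.37 without KO2, -0.99 without KO1 and -0.34 with GC and length trends removed.

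Mir7-1 (chromosome 13, 58392779 to 58392886), a source of miR-7, which acts in neurons and endocrine cells, was the only gene with a name number up to 500 that lay lower in both knockouts. It had 34, 49, 46 and 116 counts, or 1.10, 1.10, 1.15 and 3.22 CPM, so KO1, KO2 and WT1 were close and WT2 stood apart. Its log2 fold change was -0.98 ± 0.58 (edgeR adjusted p = 0.274), and it was -0.06 without WT2, -1.54 without WT1 and -0.18 with GC and length trends removed. Hnrnpk, its host and an RNA-binding protein gene, had 635 and 661 against 752 and 1044 CPM, again highest in WT2 (-0.47 ± 0.20, adjusted p = 0.167). Mir1192 in Klf9, named after its values were seen, had 26 and 8 counts in the wild types and 0 in both knockouts, at least 5.62-fold lower. It did not reach the filter, and edgeR without the filter gave an adjusted p of 0.0356. Mir7064 had 5 and 6 counts in the wild types and 0 in the knockouts.

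The remaining tested genes lay on either side. Mir7036, overlapping an exon of Srrt, which encodes a cofactor of the DROSHA complex, had 13, 29, 4 and 5 counts (log2 fold change 2.16 ± 0.49, edgeR adjusted p = 0.0658). Srrt had 293 and 283 against 276 and 228 CPM (0.19 ± 0.15, edgeR adjusted p = 0.381). Mir31 had 16, 18, 7 and 2 counts (1.94 ± 0.62, edgeR adjusted p = 0.107). Mir8112, which overlaps Krcc1, had 10, 14, 2 and 0 (3.45 ± 0.90, edgeR adjusted p = 0.0791). Mir5136, opposite Lbhd1, had 9, 17, 5 and 2 (1.86 ± 0.57, edgeR adjusted p = 0.0991). The groups did not overlap for these 4 genes. Mir5119, Mir697 and Mir8094 had 5, 14, 2 and 10, then 10, 17, 7 and 22, then 10, 23, 15 and 19 counts, with overlapping groups. Of the 43 genes under the filter, both knockouts lay above both wild types in 19 (44.2%) and below in 7 (16.3%), and 17 overlapped. The shares over all genes with at least 10 counts were 35% and 32.9%. Of these 43, 6 had no count in either wild type and 2 no count in either knockout.

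**Figure D3:**
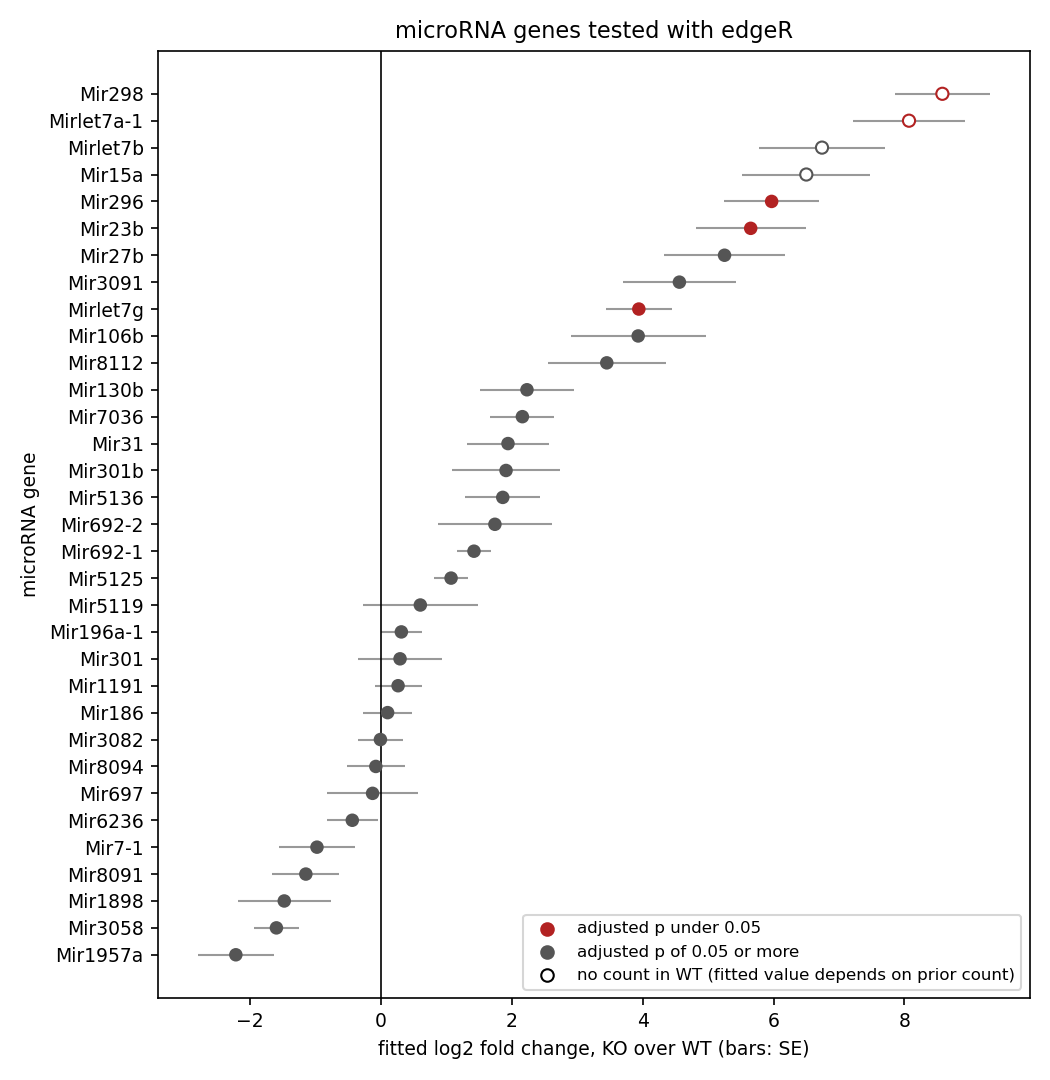
Fitted log2 fold change, knockout over wild type, with its SE (bars) for the 33 microRNA genes tested with edgeR. The 5 genes past the adjusted threshold are in red, and open circles are the 4 genes with no wild-type count, whose fitted value depends on the prior count and whose lower bounds are given in the text. Mir1957a has the lowest value, -2.22, and Mir196a-1, Mir186 and Mir3082 lie near 0.

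MicroRNA numbers follow the order of registration, so low numbers are mostly conserved and long-known genes. Split at number 500, a limit chosen after the values were seen and therefore given without a test, the genes fell into 31 with a number up to 500 or a let-7 name and 45 with a higher number. Of the 31, both knockouts lay above both wild types in 27 (87.1%) and below in 1 (3.23%). Of the 45, they lay above in 12 (26.7%), below in 11 (24.4%) and overlapped in 22. Over all genes with at least 10 counts the shares were 35% above and 32.9% below. The 31 summed to 17.3 and 17.0 CPM in KO1 and KO2 and 4.11 and 5.05 CPM in WT1 and WT2. The 45 summed to 37.8 and 39.0 against 27.6 and 21.3 CPM, including the 22.2 ± 0.552 and 8.29 ± 2.45 CPM of Mir692-1. All 5 edgeR calls were in the first class. Of the 17 tested genes of the second class, 8 had an unadjusted p under 0.05, where 37.1% of all tested genes did, and DESeq2 called 3.

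By position, 43 genes lie in introns of a gene on the same strand, 19 in exons, 12 outside genes and 2 only opposite a gene. Both knockouts lay above both wild types in 16 of the 43 intronic genes (37.2%), 13 of the 19 exonic genes (68.4%) and 9 of the 12 outside genes (75%). They lay below in 10, 0 and 2 (23.3%, 0% and 16.7%). Over all genes with at least 10 counts the shares were 35% above and 32.9% below, so the intronic genes lay above about as often as all genes. Of the 10 intronic genes that lay below, 9 have a number above 500. Hairpins had a median length of 82 bases and GC content of 52.3% in genes where the knockouts lay above, and 91 bases and 47.8% where they lay below. Their median folding energy was -0.421 and -0.379 kcal per mol and base. These classes hold 35 and 9 hairpins with a sequence, so the medians describe few genes.

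**Figure D4:**
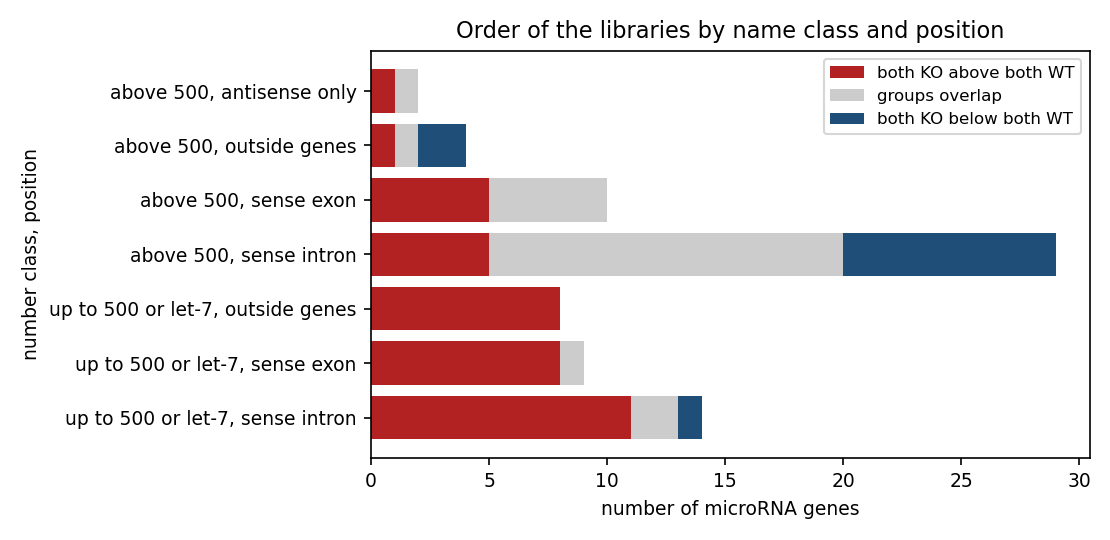
Number of microRNA genes (horizontal axis) in which both knockout libraries lay above both wild types (red), the groups overlapped (grey) or both knockouts lay below (blue), by name number and position. Among genes up to 500 or let-7, the red part holds 8 of 8 outside genes, 8 of 9 exonic and 11 of 14 intronic genes. Among genes above 500 in introns it holds 5 of 29, and the blue part 9.

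Hairpin and host could be compared in 25 pairs where both were tested, from 24 microRNA genes. The log2 fold change of the hairpin was more than 1 above that of the host in 12 pairs and more than 1 below in 2. Only hairpins past the expression filter entered a pair. Among the 12, Mirlet7a-1, Mirlet7g, Mir15a, Mir23b, Mir27b, Mir106b, Mir3091, Mir7036 and Mir8112 had 0 to 5 counts in each wild-type library. They met the filter only through the knockout libraries, so the split of 12 and 2 is a description of selected genes. The 2 pairs more than 1 below are Mir1957a in Slc2a1 and Mir3082 in Stub1, chosen for mention after their values were seen. The 12 include Mirlet7a-1 and Mir15a, which had no wild-type count, so that their fitted values depend on the prior count. They also include Mir5119, whose groups overlapped and whose host Cdk12 changed by -1.13. Mir692-2 is counted among them for Grik3 (2.08 above), while against Ftl2-ps the difference was -0.3. Mir3082 had 16, 20, 20 and 17 counts while Stub1, a ubiquitin ligase gene, rose from 45.9 and 45.4 to 102 and 94.5 CPM (1.10 ± 0.12, edgeR adjusted p = 0.0482). Over the 55 tested host genes, 8 were called higher and 2 lower, with a median of 0.15. Over all tested genes 3.51% were called higher and 1.94% lower, with a median of -0.02. Counting options decide whether a read over a hairpin goes to the hairpin or to its host, so the paired values are not independent. Of 144 hairpins wholly inside an exon of a counted gene on the same strand, 130 (90.3%) had no count, against 546 of the other 841 (64.9%).

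**Figure D5:**
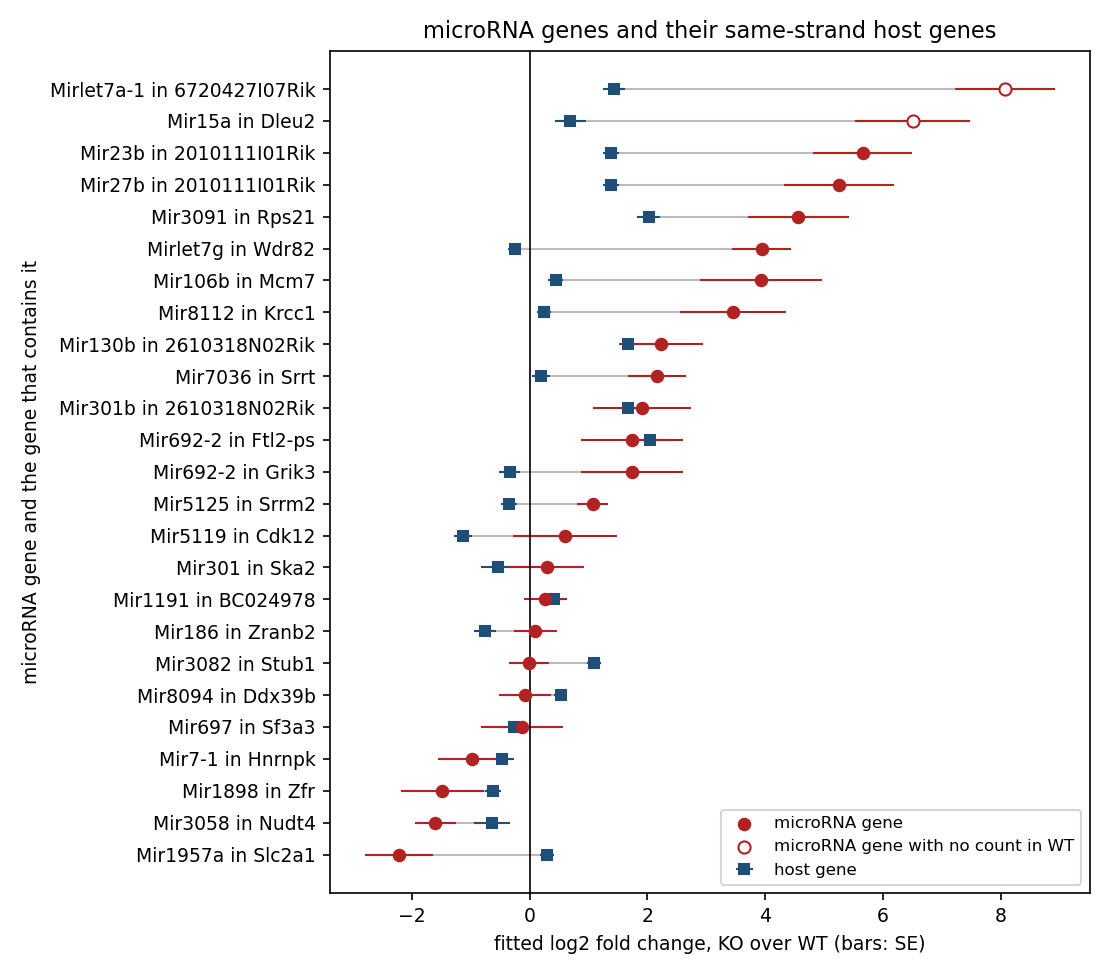
Fitted log2 fold change, knockout over wild type, of microRNA genes (circles, open where the wild types had no count) and of the same-strand gene that contains or overlaps them (squares), with SE bars, for the 25 tested pairs. Mirlet7g, Mir106b and Mir8112 lie far to the right of hosts near 0, Mir130b and Mir301b lie near their host, and Mir1957a lies left of Slc2a1.

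KO1 and KO2 were each set against the mean of the same wild-type libraries, as log2 ratios with a prior count of 2. For Mir106b they were 3.72 and 2.78, for Mir5125 1.20 and 0.90, and for Mir1898 -1.97 and -0.80. For Mir1957a the larger change was in KO2, with -1.61 and -2.38. The 5 called genes had 3.92 and 4.33 (Mirlet7a-1), 2.94 and 2.95 (Mirlet7g), 4.60 and 4.84 (Mir23b), 4.08 and 4.05 (Mir296), and 4.60 and 4.66 (Mir298). With 1 library for each allele, a difference between KO1 and KO2 was not tested. Between the wild types, WT2 lay below WT1 in 39 genes and above in 27. Among the 39 genes in which the knockouts lay above, WT2 was the lower wild type in 23 and the higher in 6.

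Some microRNA genes are made without DROSHA, either as mirtrons spliced from short introns or as capped hairpins. A list of 6 genes reported to be so made was fixed by name, and all 6 were below the count minimum. They are Mir320, Mir484, Mir702, Mir877, Mir1224 and Mir1981, and the only count was 1 read of Mir484 in WT1. No comparison of these 6 with the other hairpins was therefore possible at this depth. Whether any of the 76 genes are made without DROSHA was not examined. Of 74 microRNA genes named whatever their values, 71 were counted and 15 were among the 76. The 6 hairpins of the miR-17-92 cluster had no count in any library, although their host Mir17hg had 132.5 and 133 against 42.7 and 79.2 CPM (1.12 ± 0.33, edgeR adjusted p = 0.0925). Hairpins were thus at 0 counts where their host was read in every library. The option for reads over overlapping genes is not given, so these zeros need not mean that no read fell there.

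Of 30 genes of microRNA processing and action, 1 was called higher and 2 lower, with a median log2 fold change of -0.40. The shares over all tested genes were 3.51% higher and 1.94% lower, with a median of -0.02. Dgcr8, whose own message carries hairpins that DROSHA can cut, rose from 100.5 and 114 to 230 ± 4.09 CPM (SD, n = 2; 1.10 ± 0.13). Drosha fell by 1.19 ± 0.11 on the log2 scale. Mtrex, the helicase that feeds nuclear RNA to the exosome, fell from 295 ± 17.0 to 172 ± 0.974 CPM (SD, n = 2 each), or by 0.78 ± 0.12 in log2 units. Each of the 3 genes had an edgeR adjusted p of 0.0482. Dicer1, which cuts the hairpin to the mature form, changed by a log2 value of -0.45 ± 0.11 without passing (edgeR adjusted p = 0.0742), and Xpo5, the exporter of hairpins, -0.42 ± 0.15 (adjusted p = 0.122). Lin28a and Lin28b, the inhibitors of let-7 maturation, had -0.49 ± 0.20 and -0.71 ± 0.17 (edgeR adjusted p = 0.154 and 0.0688).

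The count minimum fell among genes of few reads. Just inside, with 10 or 11 counts, were Mir5098, Mir669i, Mir6912, Mir7223, Mir7660, Mir674, Mir7064 and Mir7647, whose counts per library ran from 0 to 6. Just outside, with 8 or 9, were Mir1983, Mir8116, Mir6913, Mir6951, Mir6991, Mir7013 and Mir7051, with 0 to 6 per library. A minimum of 20 would keep 42 genes and a minimum of 5 would keep 128.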

How the data were processed

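RNA of 4 mouse embryonic stem cell libraries was measured by poly(A) sequencing. The deposited values are raw counts per Ensembl gene for each library. Per the submitters' processing notes they were made with STAR 2.4.2a and featureCounts 1.4.5-p1, and the build was mm10. The release of the annotation and the options for strand, overlapping genes and multiple matches are not given in the sources used here. Names came from a gene name table (42462 identifiers matched), positions and biotypes from GENCODE M21, sequences from RefSeq (GRCm38.p6).

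The test was that of edgeR 4.0.16 (R 4.3.3): TMM scaling, the default filter with groups (minimum count 10, total 15), a quasi-likelihood model with group as its sole term on 2 against 2 libraries, and Benjamini-Hochberg adjustment over all tested genes at 0.05. Fold changes are log2, knockout over wild type, with SE. CPM are TMM-scaled. Ratios of summed counts have exact 95% intervals. Genes without wild-type counts were set against a floor of 3 counts per library. A permutation of 2 against 2 libraries cannot give a p below 0.333. Alternatives used DESeq2 1.42.0, other scalings, no filter, a replicate block, lowess trends on GC and length removed, and each library left out. Shared sequence was searched as 30-base stretches of the transcripts, and folding energies came from RNAfold 2.7.2. Other steps used Python 3.11.15. The count test was checked on simulated data.

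The microRNA genes and the lists were chosen with earlier results of these data known. Named genes are every called microRNA gene, a fixed list of 74, the 15 largest summed counts, the 3 lowest fold changes and those next to the count minimum. Others, among them Mir15a, Mir301b, Mir181c, Mir181d, Mir421, Mir374b, Mir140, Mir301, Mir692-2, Mir3082, Mir343, Mir8112, Mir31, Mir7036, Mir5136, Mir5119, Mir697, Mir8094 and Mir1192, were named after their values were seen. No column of another sample was present.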

Additional observations from a re-analysis of the deposited data

How the results depend on the processing

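Calls stood near the threshold, and the cause of each change below was not tested. Of 5 called microRNA genes, 0 passed with library totals alone, upper-quartile scaling or GC and length trends removed, where the smallest adjusted p of any gene was 0.0542, 0.0520 and 0.101. Their fitted changes stayed about as large, except for Mir296 (5.97, and 4.72 with trends removed). DESeq2 called 9 and edgeR without a filter 14. The replicate block called 12 and 3 remained with 1 gene for each unit of neighbours. Leaving out a library gave 0 to 31, where the lone library of a group is assumed to vary like the other pair. Of all genes 927 were called, against 0 with library totals alone, upper-quartile scaling or trends removed, 3851 with DESeq2, 2663 without a filter, 1929 with the replicate block and 0 to 13658 without a library. For the 3 called pathway genes the counts were 0, 0, 8 and 6 with totals, upper-quartile scaling, DESeq2 and no filter, 0 with trends removed and 0 to 28 without a library, all chosen after seeing the data. The groups share only replicate numbers (correlation of deviations of KO1 and WT1 0.0461, 2 pairs), so a call gained or lost under the block says nothing about its strength. The median of 1.74 was 1.86 with library totals alone, where the median over all genes was 0.13. It was 1.08 without a filter, 1.88 with the replicate block, 0.66 with trends removed, and 0.42 to 2.56 without a library. Of 231 tested genes up to 150 bases, 71 are microRNA genes, so the length curve removed is drawn partly from them. Numbers of genes with non-overlapping groups stayed at 39 to 40 higher and 11 to 12 lower under both other scalings, and 32 and 12 of 69 with 1 gene for each unit. A minimum of 20 or 5 counts gave 42 or 128 genes. Of 205 alternative values of 21 named tested genes, 3 changed sign: Mir6236 without WT1, Mir1191 without KO2 and Mir186 without WT2. With a library left out these ran from -0.79 to 0.10, -0.03 to 0.51 and -0.13 to 0.39. Depth limits genes under the filter, where 0 counts in a library leave room for 3, or 0.0676 to 0.0972 CPM.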

Other observations

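MicroRNA genes below the count minimum were not among the genes selected above. Some of them were named there with their counts, among them Mir24-2, Mir16-1, Mir96, Mir183, Mir222 and Mir29b-1. The sums that follow include those genes, so they are not fully separate from the counts already given. There were 233 such genes with 1 to 9 counts in all. The 75 with a name number up to 500 or a let-7 name had 77 and 81 counts in KO1 and KO2 and 24 and 6 in WT1 and WT2, a knockout over wild-type ratio of 5.32 (exact 95% interval 3.58 to 8.14). The 158 with a higher number had 103 and 145 against 145 and 80 counts, a ratio of 1.11 (0.925 to 1.34). The intervals cover counting error only, and the limit of 500 was chosen after the values were seen. Mirlet7i, another let-7 gene, had 2 and 5 counts in the knockouts and 0 in the wild types.

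Non-coding genes upstream of some hairpins outside genes were also read in these libraries. Gm27019, which ends 345 bases before Mir29a on the same strand, had 13 and 23 counts in KO1 and KO2 and 0 in both wild types (edgeR adjusted p = 0.0503). Gm37352, which ends 5469 bases before Mir23a, had 19, 23, 3 and 0 counts in KO1, KO2, WT1 and WT2 (log2 fold change 3.74 ± 0.90, edgeR adjusted p = 0.0712). Gm53, which ends 296 bases before Mir196a-1, had 9.24, 9.31, 5.41 and 8.11 CPM (0.46 ± 0.27, edgeR adjusted p = 0.273). Gm340, which ends 2115 bases before Mir8091, had 21.7 and 24.1 against 55.7 and 27.8 CPM (-0.87 ± 0.37, edgeR adjusted p = 0.170), and Mir8091 itself had 8, 16, 37 and 17 counts. These genes were named after their values were seen.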
